A study of Mus musculus with 8 samples.

Results

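Distal regions that NANOG and BRG1 occupied in both arms, and at which the NANOG summit was taller with the engineered factor, are described here. CUT&Tag, in which an antibody steers a transposase to its target so that the DNA around it is tagged for sequencing, had been performed at day 5 of reprogramming. The starting cells were mouse embryonic fibroblasts (MEFs) from E13.5 embryos of a cross of OG2 mice, which carry an Oct4-GFP reporter, with 129 mice, and the cells were kept in iCD3 medium. Both arms received Oct4 by pMXs retrovirus. The NanogWT arm also received wild-type Nanog, and the NanogBiD arm received Nanog with the first 70 residues of SS18 fused to its N-terminus. The second arm is NanogN70 in GEO's labels; that this is NanogBiD comes from the text of the study. In each arm 4 targets were profiled: FLAG, the epitope tag on NANOG, BRG1, H3K27ac and H3K4me1. Each of the 8 groups was 1 library that the authors had merged from replicates, so differences between arms cannot be set against a spread between cultures and no test was made. In bulk cultures, binding in more cells and more binding per cell cannot be told apart. Peak lists hold no expression values, so the labelled cell type could not be checked against marker genes.

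Overlapping or touching FLAG and BRG1 peaks of the 2 arms were joined, which gave 93352 regions. Of these, 22084 held a peak of all 4 lists and 11715 of them were distal, with the tallest NanogBiD FLAG summit over 2 kb from any annotated transcription start site. The height of a summit is the number of tags piled up there and was not scaled to library depth. In 2249 of the 11715 regions (19.2%) the tallest FLAG summit was at least 1.5 times as high in NanogBiD as in NanogWT, and these are called raised. Another 1414 regions (12.1%) were at least 1.5 times lower and are called lowered, and the 8052 between are called steady (68.7%). The members were thus selected on FLAG height, and FLAG values are given as a description. BRG1 heights, the histone marks and sequence were not used in the choice, although a BRG1 peak in both arms was required. Of position, the limit of 2 kb was used in all 3 classes alike.

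NANOG is a homeodomain transcription factor that stabilises the naive pluripotent state and works with OCT4 and SOX2, which bind neighbouring sites in enhancers of embryonic stem cells. BRG1 is the ATPase of the BAF complex, which slides and evicts nucleosomes to open chromatin, and SS18 is a BAF subunit whose N-terminal domain contacts BRG1. H3K4me1 marks enhancers whether active or poised, and H3K27ac marks active ones. In fibroblasts many enhancers are held open by AP-1, dimers of FOS and JUN family proteins, together with TEAD and RUNX factors, and these are the enhancers that reprogramming has to close.

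AP-1 was the motif under the NanogBiD FLAG summits whose share differed most, in percentage points, between the classes. Matches were sought on both strands within 50 bp of the summit. AP-1 was searched as TGACTCA, whose reverse complement is TGAGTCA. The 4 members with an AP-1 match and the tallest NanogBiD FLAG summits are shown first, chosen after the motif counts had been seen. Each run is the plus strand of GRCm38 (mm10) from RefSeq, read 5′ to 3′ and reaching 50 bp to either side of the summit, with motif matches in capitals.
chr15:8717150-8717250: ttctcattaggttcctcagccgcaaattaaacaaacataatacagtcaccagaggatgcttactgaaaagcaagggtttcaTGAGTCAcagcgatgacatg
chr2:71644200-71644300: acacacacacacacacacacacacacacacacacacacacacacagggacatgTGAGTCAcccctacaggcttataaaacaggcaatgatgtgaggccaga
chr2:113621771-113621871: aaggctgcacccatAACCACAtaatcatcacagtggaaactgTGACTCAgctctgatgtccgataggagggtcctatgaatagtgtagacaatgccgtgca
chr11:28906405-28906505: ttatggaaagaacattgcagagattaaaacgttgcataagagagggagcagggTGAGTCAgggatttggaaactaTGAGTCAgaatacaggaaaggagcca

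The first lay between genes, 6.44 kb from the start of Slc1a3, a glutamate transporter, and its heights in NanogWT and NanogBiD were 36 and 67 for FLAG, 10 and 43 for BRG1, and 13 and 23 for H3K27ac. The second lay beside a run of CA repeats 97.5 kb from Dlx2, a homeobox gene, with FLAG at 38 and 63 and BRG1 at 40 and 51. The third was in an intron of Fmn1, which encodes the actin nucleator formin-1, and also held a RUNX match; FLAG stood at 38 and 63 and BRG1 at 26 and 50. The fourth, in an intron of Efemp1, a matrix glycoprotein gene, held 2 AP-1 matches, with FLAG at 34 and 61 and BRG1 at 18 and 35. The rule itself required the taller FLAG summits. BRG1 was taller in NanogBiD in all 4, as it was at 84.6% of raised and 71.9% of all distal common regions.

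The member with the tallest NanogBiD FLAG summit and 2 of the tallest members with a match to the OCT octamer or to the core of the OCT-SOX composite site are shown for contrast. The octamer was searched as ATGCAAAT and the core as TTGTNATGC, which overlaps the octamer in part.
chr14:23633769-23633869: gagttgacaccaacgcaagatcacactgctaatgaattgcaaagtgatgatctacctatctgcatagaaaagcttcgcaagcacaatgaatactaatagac
chr4:125545225-125545325: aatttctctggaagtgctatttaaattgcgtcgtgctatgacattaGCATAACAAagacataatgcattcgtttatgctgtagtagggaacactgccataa
chr2:103348170-103348270: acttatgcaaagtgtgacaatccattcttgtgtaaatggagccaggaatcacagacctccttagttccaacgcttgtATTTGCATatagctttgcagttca

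The first, in an intron of Kcnma1, a potassium channel gene, held none of the 12 motifs in this window. The second, in an intron of Grik3, a glutamate receptor gene, held the composite core within 4 bases of the summit and had FLAG heights of 35 and 53 and BRG1 heights of 10 and 35 in NanogWT and NanogBiD. The third, in an intron of A930006I01Rik 44.9 kb from Ehf, an epithelial ETS factor gene, had FLAG at 21 and 46 and BRG1 at 11 and 29.

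Among the raised regions the median FLAG height was 15 in NanogWT and 27 in NanogBiD, with ranges of 7 to 46 and 11 to 78. The ratio of the heights ran from 1.5 to 4.4 with a median of 1.76. It was at least 2 in 666 members (29.6%) and at least 3 in 49 (2.18%). Heights are small whole numbers, and 171 members stood at exactly 1.5, 534 (23.7%) were under 1.6, and 82 differed by 5 tags or fewer. Of the members at 1.5, the tallest was a region 38.8 kb from Wnt2b with FLAG heights of 46 and 69. The highest ratio outside the limit was 1.48, in 3 regions that each had FLAG heights of 33 and 49, in introns of Rims2, AC134555.1 and Gm19265. The ratios include any difference in depth between the FLAG libraries. With heights divided by the median ratio at all regions with a FLAG peak in both arms, 1.11, 1488 regions were raised and 2076 lowered, so the larger number of raised than of lowered regions turned around. With the peak caller's FLAG score in place of height it did so too, with 2132 raised and 2563 lowered.

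**Figure D1:**
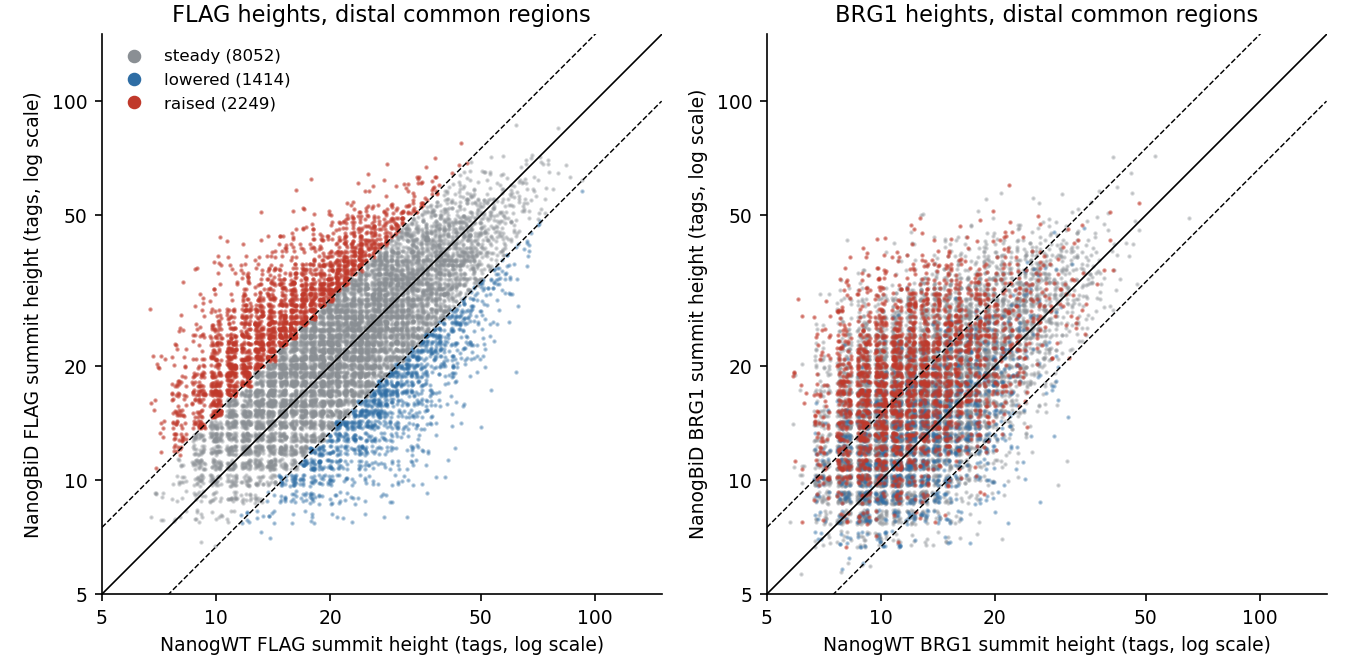
Summit heights in tags, on log axes, of FLAG (left) and BRG1 (right) in NanogWT (horizontal) and NanogBiD (vertical) at the 11715 distal common regions. Each point is a region coloured by its class, with a small horizontal and vertical jitter; the solid line marks equal heights and the dashed lines a ratio of 1.5 either way. The FLAG panel shows the rule itself, and in the BRG1 panel the raised regions lie mostly above the line of equal heights.

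The first question was whether BRG1 was also taller where NANOG was taller. The median BRG1 height of raised regions was 12 in NanogWT and 19 in NanogBiD, with middle quartiles of 10 to 15 and 15 to 24. At steady regions the medians were 13 and 17, and at lowered regions 12 and 13. The classes thus began at nearly the same BRG1 height in NanogWT and differed in NanogBiD. BRG1 was at least 1.5 times higher in NanogBiD at 1188 raised regions, 52.8% (Wilson 95% interval 50.8 to 54.9), where 34.4% of all distal common regions passed that limit. At steady regions the share was 32.9% (31.9 to 33.9) and at lowered regions 13.7% (12.02 to 15.6). BRG1 was at least 1.5 times lower at 20 raised regions (0.889%), against 3.15% of all.

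The median log2 change of BRG1 height, NanogBiD over NanogWT, was 0.61 at raised regions (95% interval from the order statistics 0.58 to 0.63). It was 0.35 at steady regions (0.32 to 0.35) and 0.00 at lowered regions (0.00 to 0.09). BRG1 was higher at 1903 raised regions (84.6%), equal at 94 and lower at 252, and it was higher at 71.9% of all distal common regions. These intervals treat regions as independent and cover counting error only. The BRG1 list of NanogBiD was the longer one, with 53748 peaks against 30859, and division by the median ratio of each target lowered the raised median to 0.51 while the difference from steady regions was 0.27, against 0.26 without it. With regions classed by FLAG score in place of height the medians were 0.54 and 0.39, a difference of 0.16.

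**Figure D2:**
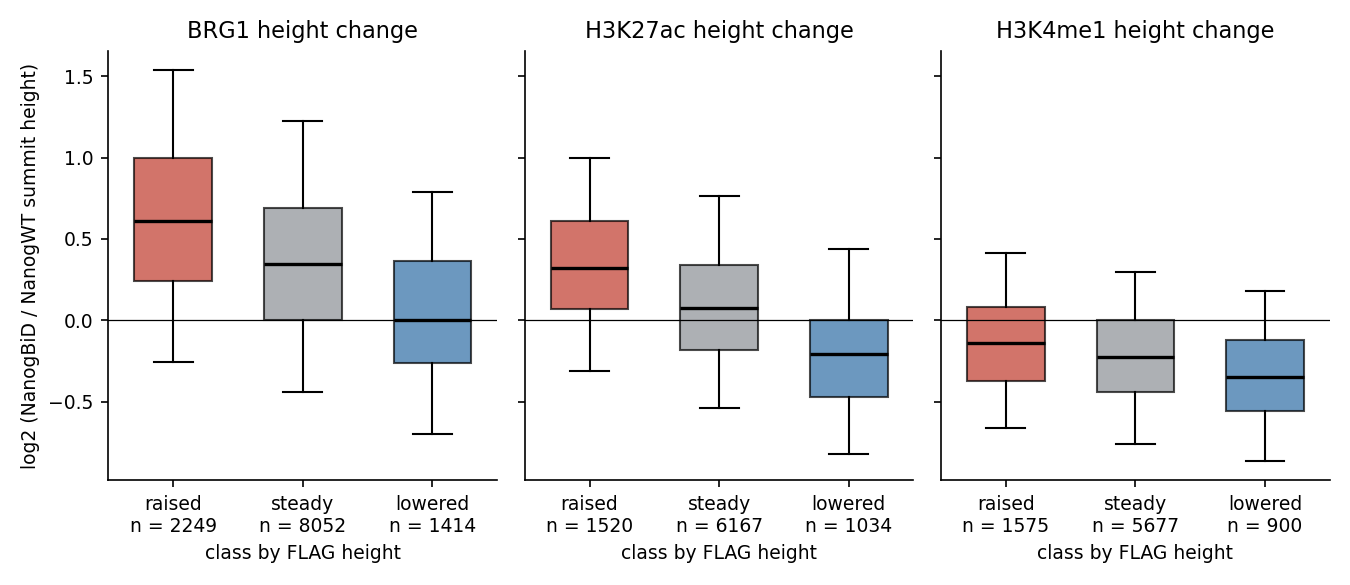
log2 change of summit height, NanogBiD over NanogWT, for BRG1, H3K27ac and H3K4me1 at raised, steady and lowered regions with a peak of that target in both arms. Boxes span the middle quartiles, the line is the median and whiskers reach the 5th and 95th percentiles; for BRG1 the medians are 0.61, 0.35 and 0.00, and for H3K27ac 0.32, 0.07 and -0.21.

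Raised regions had lower NanogWT FLAG heights than steady ones, with medians of 15 and 22, so the classes were also compared within 3 bands of that height. The top band had no upper limit and does not match heights between the classes. On chromosomes 1 to 19 and X it held 651 raised and 3452 steady regions at 18 to 29 tags. At 30 and over it held 78 and 2136. At NanogWT FLAG heights under 12, the BRG1 median was 0.32 at 604 raised regions and 0.00 at 511 steady ones. At heights of 12 to 17 it was 0.58 at 916 raised and 0.14 at 1951 steady regions. At 18 and over it was 0.90 at 729 raised and 0.45 at 5590 steady regions. The intervals of raised and steady regions did not overlap in any of the 3 bands. In both classes the BRG1 change was larger where NANOG already stood high in NanogWT.

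**Figure D3:**
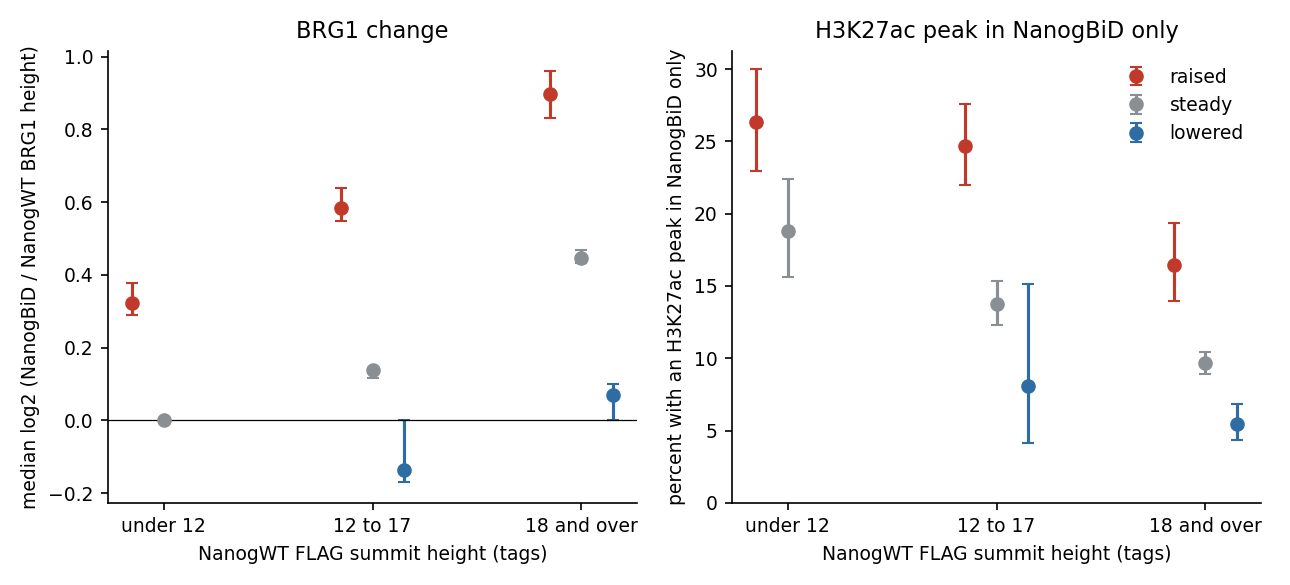
Left, median log2 change of BRG1 height; right, percent of regions with an H3K27ac peak in NanogBiD only, each by the NanogWT FLAG height of the region in 3 bands. Points are classes and bars 95% intervals (order statistics on the left, Wilson on the right); no lowered region had a NanogWT FLAG height under 12. Raised regions lie above steady regions in all 3 bands of both panels, from 0.32 against 0.00 to 0.90 against 0.45 for BRG1.

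Within the raised regions BRG1 followed the size of the NANOG difference only loosely. The BRG1 median was 0.53 at FLAG ratios of 1.5 to under 2, 0.74 at 2 to under 3, and 0.93 at 3 and over. Spearman's rho between the FLAG and BRG1 changes was 0.189 over the 2249 regions, where the rule had narrowed the range of FLAG ratios, and 0.322 over all 11715. The points share libraries and neighbouring DNA. The 4 members with the largest BRG1 ratios, among those with a NanogBiD BRG1 height of at least 20, all lay between genes. Near Rhoh, a small GTPase gene, BRG1 went from 6 to 30 tags and FLAG from 23 to 45. In a region 975 kb from the nearest protein-coding start, that of Stim2, BRG1 went from 8 to 39 and FLAG from 33 to 56. In a region 488 kb from Marcks BRG1 went from 9 to 41 and FLAG from 18 to 62. In the region 37.0 kb from Psmc1 BRG1 went from 8 to 36 and FLAG from 33 to 51. They were picked for these ratios, which are a description.

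The tallest NANOG summits of the class had tall BRG1 summits as well. The Kcnma1 intron, chr14:23632298-23635255, had the tallest NanogBiD FLAG summit. FLAG stood at 44 in NanogWT and 78 in NanogBiD, BRG1 at 22 and 60, H3K27ac at 19 and 35, and H3K4me1 at 16 in both. At chr1:90465136-90468059, between genes 137 kb from Cops8, FLAG went from 38 to 71 and BRG1 from 12 to 47. In an intron of Ranbp17, chr11:33403119-33404891, FLAG went from 28 to 68 and BRG1 from 13 to 38. In an intron of Chn2, a Rac GTPase-activating protein gene, FLAG went from 44 to 68 and BRG1 from 17 to 41. H3K27ac was taller in NanogBiD at all 6 of the tallest members, by 1.57 to 2.33 times. Where both arms had the mark, it was taller at 77.2% of raised and 54.1% of all distal common regions.

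The largest FLAG ratio, 4.4, was in an exon of Agr2, a secretory-pathway disulfide isomerase gene, at chr12:35997279-35998612. FLAG stood at 10 in NanogWT and 44 in NanogBiD, BRG1 at 14 and 27, and H3K27ac at 9 and 22. The next, 8.28 kb from Ncmap, had FLAG at 8 and 33 and BRG1 at 12 and 19. Introns of Lrp8, a receptor of the LDL receptor family, and of Pstpip1 both had FLAG at 9 and 36, with BRG1 at 11 and 21 in the first and 11 and 22 in the second. Introns of Slmap and Tmem200a had FLAG at 13 and 51 and at 11 and 43, with BRG1 at 13 and 39 and at 8 and 30. BRG1 was taller in NanogBiD at all 6, as it was at 84.6% of raised and 71.9% of all distal common regions. The exact binomial intervals of the BRG1 ratio, for counting of tags only, reached below 1 at the first 4.

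H3K27ac, the mark of active enhancers, also rose more often at raised regions than at steady ones. The classes began unequal in this mark, with a NanogWT peak at 69.5% of raised and 81.5% of steady regions. In NanogBiD the shares were 90.0% and 87.8%, with median heights of 19 and 18. Raised regions thus had more room for a peak in NanogBiD alone. A peak was present in both arms at 1520 raised regions (67.6%), in NanogBiD alone at 505 (22.5%, interval 20.8 to 24.2), in NanogWT alone at 44 (1.96%, 1.46 to 2.62) and in neither at 180 (8.0%). Over all distal common regions 12.7% had the peak in NanogBiD alone and 5.36% in NanogWT alone. At steady regions the shares were 11.2% (10.5 to 11.9) and 4.87%. The H3K27ac list of NanogBiD was the longer, with 42598 peaks against 35452. The contrast in NanogBiD-only peaks was smaller with 100 bp either side of each summit in place of peaks, at 27.5% of raised and 20.1% of steady regions, and with heights of at least 15, at 14.1% and 9.32%. At lowered regions they were turned around, with 5.66% (4.57 to 6.99) in NanogBiD alone and 13.6% in NanogWT alone. Where both arms had a peak, the median log2 change was 0.32 (0.30 to 0.35) at raised, 0.07 (0.06 to 0.08) at steady and -0.21 (-0.23 to -0.17) at lowered regions. H3K27ac was at least 1.5 times higher in NanogBiD at 425 of the 1520 (28.0%), against 12.8% of all, and at least 1.5 times lower at 18 (1.18%), against 5.35%.

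The gain of H3K27ac also stood within each band of starting NANOG height, with 26.3% against 18.8% of steady regions at NanogWT FLAG heights under 12, 24.7% against 13.7% at 12 to 17, and 16.5% against 9.64% at 18 and over. In both classes the share fell as NanogWT FLAG height rose. Raised regions lay lower within the open top band, so its contrast is not at equal heights. The gain was more frequent where the FLAG ratio was larger. A peak in NanogBiD alone was found at 19.5% of members with a ratio of 1.5 to under 2, 27.2% at 2 to under 3, and 57.1% (43.3 to 69.98) of the 49 at 3 and over. The mark also followed BRG1. Among members with a NanogBiD-only H3K27ac peak the median BRG1 change was 0.83 (0.74 to 0.91), and among the 44 with a NanogWT-only peak 0.31 (0.11 to 0.47). Spearman's rho between the changes of BRG1 and H3K27ac was 0.457 over the 1520 members with the mark in both arms and 0.450 over all 8721 distal common regions with it. Between FLAG and H3K27ac it was 0.144 over the same members, in which the rule had narrowed the range of FLAG ratios, and 0.399 over those 8721.

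Both readouts were up together at 658 raised regions (29.3%, 27.4 to 31.2), with BRG1 at least 1.5 times higher and H3K27ac either 1.5 times higher or present in NanogBiD alone. This held at 13.2% of all distal common regions, at 10.7% of steady and at 1.91% of lowered ones. BRG1 alone passed at 530 raised regions (23.6%, against 21.2% of all), H3K27ac alone at 272 (12.1%, against 9.09%), and neither at 789 (35.1%, against 56.5%).

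**Figure D4:**
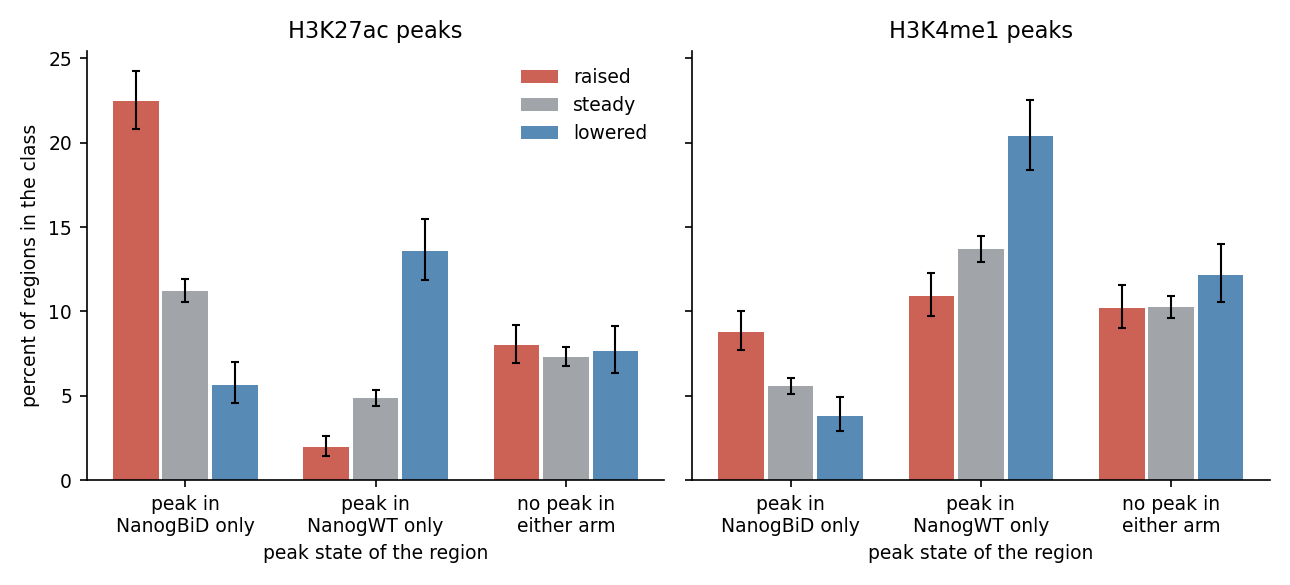
Percent of raised, steady and lowered regions with a peak of H3K27ac (left) or H3K4me1 (right) in NanogBiD only, in NanogWT only or in neither arm. Bars are shares of the class and error bars Wilson 95% intervals; the remainder had a peak in both arms. For H3K27ac the NanogBiD-only share is 22.5% at raised, 11.2% at steady and 5.66% at lowered regions.

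The tallest H3K27ac peaks present in NanogBiD alone were at an intron of Iffo2, with 41 tags, and at an intron of Ccdc83, a region 8.5 kb from Ccdc73 and an intron of Ss18, with 30 each. At the Ccdc83 and Ccdc73 regions FLAG went from 23 to 53 and from 21 to 44, and BRG1 from 14 to 37 and from 13 to 37. At the Iffo2 region FLAG went from 23 to 41 while BRG1 stood at 33 in NanogWT and 27 in NanogBiD, so the mark was gained there without a taller BRG1 summit.

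The Ss18 region is at the gene whose domain the fusion carries. FLAG stood at 19 and 30, BRG1 at 13 and 17, and H3K27ac at no peak and 30. The region overlaps exon 4 of an annotated Ss18 transcript, which codes for residues 78 to 129, and the fused 70 residues are coded by exons 1 to 3. Exon 3 itself lay under FLAG and BRG1 peaks of 17 and 8 tags in NanogBiD and no peak in NanogWT. Whether DNA of the virus added tags at this gene was not tested.

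H3K4me1, which marks enhancers before and during activity, differed little. Its median height at raised regions was 17 in NanogWT and 16 in NanogBiD, and a peak stood in both arms at 1575 (70.03%). The median log2 change was -0.14 (-0.16 to -0.12) at raised, -0.22 at steady and -0.35 (-0.36 to -0.32) at lowered regions, so raised regions were the least low in NanogBiD. The mark was at least 1.5 times higher at 30 of the 1575 (1.90%), against 1.03% of all, and 1.5 times lower at 134 (8.51%), against 13.7%. A peak in NanogBiD alone was found at 198 raised regions (8.80%, 7.70 to 10.05), against 5.98% of all, and in NanogWT alone at 246 (10.9%), against 14.0%. The order of these shares depended on the setting, with 15.5% in NanogBiD alone and 12.8% in NanogWT alone when each list was shortened to its 20000 peaks of highest score, 15.3% and 11.4% with 100 bp either side of each summit in place of peaks, and 11.4% and 10.4% at FLAG ratios of at least 2. The H3K4me1 list of NanogBiD was the shorter, with 57156 peaks against 72242, and the median ratio over all regions with the mark in both arms was 0.882. Of the 505 members with H3K27ac in NanogBiD alone, 297 had H3K4me1 in both arms, 75 in NanogBiD alone, 62 in NanogWT alone and 71 in neither. Of the 903 such steady regions, 554 had H3K4me1 in both arms.

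Raised regions were spread over chromosomes 1 to 19 and X, with shares of distal common regions from 12.7% (8.35 to 18.7) on X to 21.4% on 8 and 15. Their summits lay in introns in 51.8%, between genes in 44.7% and in exons in 3.56%, within 1 percentage point of steady regions. They lay nearer to start sites, at a median of 13.1 kb against 15.01 kb for steady and 19.4 kb for lowered regions, and 912 (40.6%, 38.5 to 42.6) were between 2 and 10 kb, against 36.3% and 30.5%. BRG1 followed distance at raised and at steady regions, and H3K27ac did so at raised ones. The BRG1 median was 0.53 at members 2 to 10 kb from a start, 0.64 at 10 to 50 kb and 0.77 at 50 kb and over, and the share with H3K27ac in NanogBiD alone was 18.8%, 23.4% and 31.1% in the same order. At steady regions the BRG1 medians were 0.28, 0.35 and 0.47. The H3K27ac shares there were 10.4%, 11.4% and 12.6%, with intervals that all overlapped. The FLAG and BRG1 summits of NanogBiD were closest in this class, at a median distance of 52 bp against 69 bp at steady and 92 bp at lowered regions. Raised regions were also the narrowest, with median widths of 1436, 1563 and 1695.5 bp in the same order. They had the tallest NanogBiD FLAG summits too, with medians of 27, 22 and 15, which the rule favours. Whether width or height accounts for the distances was not tested.

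Where another distal common region lay within 50 kb, the nearest one was also raised for 283 of 1225 members, 23.1% (20.8 to 25.5). For steady regions the share was 19.5% (18.4 to 20.7) and for lowered regions 12.7% (10.5 to 15.3). Members near each other share chromatin and are not independent.

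AP-1 was the motif by which the classes differed most in percentage points among the 12 searched. A match lay within 50 bp of the NanogBiD FLAG summit at 447 raised regions, 19.9% (18.3 to 21.6), at 11.3% (10.6 to 12.03) of steady and at 5.87% (4.76 to 7.22) of lowered regions. In windows of the same size 1 kb away the shares were 1.82%, 1.84% and 1.34%. A second match was present at 54 raised regions, 2.401%, against 0.708% of steady ones. Of all 1441 distal common regions with a match, 31.0% (28.7 to 33.5) were raised, where 19.2% of all regions were. The matches lay a median of 21 bp from the summit.

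The same order was found in other windows and at other heights, which were chosen after these shares had been seen. Around the NanogWT FLAG summit the shares were 15.3% (13.9 to 16.9), 9.69% and 5.30%, around the NanogBiD BRG1 summit 17.3%, 10.2% and 4.74%, and over the whole region 61.0%, 51.9% and 40.5%. By NanogBiD FLAG height the shares were 14.8% against 11.3% at under 18 tags, where the intervals overlapped, 20.8% against 11.2% at 18 to 29, and 20.2% against 11.5% at 30 and over for raised and steady regions. Within the class the share was 18.3% at FLAG ratios of 1.5 to under 2, 23.0% at 2 to under 3, and 30.6% (19.5 to 44.5) at 3 and over.

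AP-1 did not mark the members at which BRG1 or H3K27ac changed most. The BRG1 median was 0.58 (0.52 to 0.65) with a match and 0.62 (0.58 to 0.64) without, and H3K27ac was present in NanogBiD alone at 19.5% and 23.2%, with overlapping intervals.

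The motifs of the delivered and partner factors did not separate the classes. The octamer was found at 2.49% (1.92 to 3.22) of raised, 2.57% of steady and 2.405% of lowered regions, above the 0.622% at raised regions 1 kb away. The composite core was at 0.667%, 0.646% and 0.424%. A SOX motif, CATTGTT, was at 2.71%, 2.32% and 2.48%, and a NANOG motif, GCCATTA, at 1.56%, 1.29% and 1.49%. All these intervals overlapped. The 35 raised regions with the NANOG motif had a BRG1 median of 0.91 (0.68 to 1.158), above the 0.58 (0.58 to 0.63) of those without it. At steady regions the same values were 0.38 and 0.35 with overlapping intervals. Medians were also higher with the other partner motifs. With the octamer the median was 0.78 (0.54 to 0.92) at raised regions and 0.53 (0.47 to 0.62) at steady ones, against 0.58 and 0.34 without it. With the SOX motif it was 0.69 (0.51 to 0.87) at raised and 0.58 (0.50 to 0.69) at steady regions, against the same 0.58 and 0.34. For both of these motifs the intervals with and without a match overlapped at raised regions and did not at steady ones.

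An E-box, CAGATG, ran the opposite way to AP-1, at 10.7% (9.50 to 12.1) of raised, 13.3% (12.6 to 14.1) of steady and 15.1% (13.3 to 17.02) of lowered regions. TEAD (GGAATG) was at 6.94%, 8.03% and 8.84%, RUNX (TGTGGTT) at 3.38%, 3.91% and 4.17%, and KLF (GGGTGTG) at 2.71%, 2.25% and 2.33%, with intervals of raised and steady regions that overlapped. ESRRB (TCAAGGTCA) was at 3 members (0.133%, against 0.0598% of all), CRE (TGACGTCA) at 8 (0.356%, against 0.299%) and ETS (CCGGAAG) at 20 (0.889%, against 0.649%). Each is a match of letters and not a measured site.

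**Figure D5:**
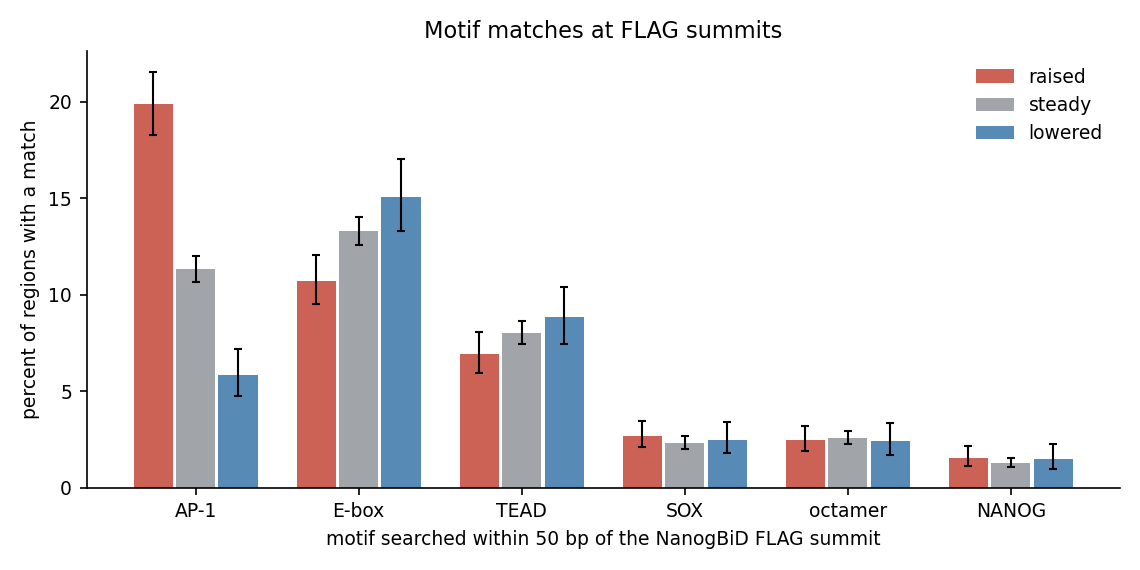
Percent of raised, steady and lowered regions with a match to each of 6 motifs within 50 bp of the NanogBiD FLAG summit; bars are shares of the class and error bars Wilson 95% intervals. AP-1 is at 19.9%, 11.3% and 5.87%, the E-box runs the other way at 10.7%, 13.3% and 15.1%, and the octamer, SOX and NANOG motifs are level across classes.

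Of the 2925 sequences of 7 bases found at 30 or more raised summits, counted with their reverse complements, the highest ratio of raised to steady shares was 2.62 for GTAAACA, the core of forkhead sites. It was at 2.31% of raised, 0.882% of steady and 2.48% of lowered regions, so it did not follow the order of the classes. AGGTCAT was at 2.36%, 0.932% and 0.990%. CACGTGA, which holds the palindromic E-box of USF and MYC proteins, was at 1.38%, 0.596% and 0.354%. GAGTCAC, which overlaps the AP-1 motif, was at 9.34%, 4.57% and 2.55%. The GC content of the windows had medians of 45.5%, 44.6% and 43.6%, and 5.47%, 6.37% and 8.77% of them were mostly repeats.

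By gene, 1883 raised regions had a nearest protein-coding start within 100 kb, spread over 1631 genes, and 20.5% (19.7 to 21.4) of all distal common regions with such a gene were raised. Nearness does not show that a region acts on the gene. Fmn1, Nedd4, Tpt1, Dlgap1 and Zfp217 had 4 raised regions each. At Fmn1 and Nedd4, a ubiquitin ligase gene, 4 of 5 distal common regions were raised. Around Tpt1, which encodes a translationally controlled tumour protein, FLAG went from 25 to 52 and BRG1 from 27 to 37 at the region 17.7 kb away. In an intron of Dlgap1, a synaptic scaffold gene, FLAG went from 24 to 61, BRG1 from 9 to 40 and H3K27ac from no peak to 26. Zfp217, a zinc-finger gene, had 10 distal common regions, of which 4 were raised, 5 steady and 1 lowered.

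Among the genes of FGF signalling, 10 of 30 distal common regions were raised and none lowered (33.3%, 19.2 to 51.2). Fgfr1, a receptor, had 3 regions, all raised, the tallest with FLAG at 25 and 58 and BRG1 at 34 and 47. In an intron of the ligand gene Fgf2 FLAG went from 24 to 48 and BRG1 from 9 to 29. Etv4, a target of the pathway, had 2 regions, both raised. Among genes of the contractile apparatus and actin cytoskeleton 13 of 39 were raised (33.3%, 20.6 to 49.0) and 3 lowered, with 3 raised at Palld, which encodes the actin-bundling protein palladin, the tallest with FLAG at 13 and 37 and BRG1 at 13 and 26.

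Among genes of BAF subunits 5 of 13 regions were raised and none lowered (38.5%, 17.7 to 64.5). Besides the Ss18 region, Arid1a and Arid2, the DNA-binding subunits of canonical BAF and of PBAF, had 2 each with no other distal common region. The tallest at Arid1a had FLAG at 13 and 29 and BRG1 at 14 and 17. The tallest at Arid2 had FLAG at 23 and 38, BRG1 at 18 and 30, and H3K27ac at no peak and 21. Epithelial genes had 4 of 11 raised (36.4%, 15.2 to 64.6), 6 steady and 1 lowered. Near Rab25, an epithelial trafficking GTPase gene, FLAG went from 24 to 44 and BRG1 from 13 to 34, and the others were at Krt8 and, for 2, at Cldn4. With the exception of the contractile genes, whose lower bound stood at 20.6%, the interval of each of these lists included 20.5%.

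Of 21992 protein-coding genes 5390 had a distal common region of any class. Of 30 naive pluripotency factors 4 had any, with 1 of 5 regions raised, 25.6 kb from Klf5, where FLAG went from 16 to 30 and BRG1 from 13 to 21. Of 20 primed and early embryonic factors 8 had any, and 2 of 8 regions were raised. At Foxb1, a forkhead gene, FLAG went from 22 to 37, BRG1 from 12 to 29 and H3K27ac from 12 to 21. At Lefty2, an inhibitor of Nodal, FLAG went from 15 to 23, BRG1 from 13 to 20 and H3K27ac from 12 to 24. In the SOX family 1 of 11 was raised, near Sox4.

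The intervals of the remaining lists also included 20.5%. Mesenchymal transcription factors had 6 of 40 raised (15%, 7.06 to 29.1) and as many lowered, with FLAG from 10 to 39 and BRG1 from 12 to 24 at an intron of Meis2. Collagen genes had 9 of 39 raised (23.1%), TGF-beta and BMP genes 7 of 44 (15.9%), Wnt genes 11 of 48 (22.9%), TEAD and Hippo genes 4 of 25 (16%) and RUNX factors 1 of 12. Of the Wnt genes, Tcf7l2, a nuclear effector, had 3 of 5 raised. Genes of the AP-1 factors had 5 of 20 raised (25%, 11.2 to 46.9). At Fos and Batf3 the BRG1 heights went the other way from FLAG. FLAG was 11 in NanogWT and 17 in NanogBiD at both, and BRG1 was 18 and 9 near Fos and 18 and 11 near Batf3.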

How the data were processed

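Peak and summit lists of 8 CUT&Tag libraries were used, 4 targets in 2 arms with 1 library each. Per the methods and processing notes, the authors trimmed reads with Trim Galore (0.6.4), aligned them to mm10 with Bowtie2 (2.4.5), filtered them with SAMtools (1.16.1), merged replicates and called peaks with MACS (1.4.2) with no control named. The labels and the methods describe different kits and cell numbers, and the antibody label of the H3K4me1 libraries reads H3K4me. The deposited score is the peak caller's significance score, with a lowest value of 50, and the deposited summit signal is the unscaled tag pileup. Tag totals are not in the lists, so depth is unknown. The lists held 30859 to 74782 peaks.

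Regions were built in Python (3.11.15) with pandas (2.3.3) and SciPy (1.17.1), with start sites from GENCODE M21 and bases from RefSeq GRCm38. Marks were assigned by an overlap of at least 1 bp, taking the tallest summit. Motifs, on chromosomes 1 to 19 and X, were counted on both strands. Named regions were the 6 with the tallest NanogBiD FLAG summits, the 6 with the largest FLAG ratios (height at least 30), the 4 with the largest BRG1 ratios (height at least 20), the 4 with the tallest NanogBiD-only H3K27ac peaks, those beside the limit, members nearest to listed genes, and the 6 genes with most members, of which Fgfr1 was taken from 34 with 3. Members, gene lists and motifs were chosen with earlier results of these data known. The code was checked on simulated peaks. Alternatives changed thresholds, list size, scaling, merging, start sites, chromosomes and windows.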

Additional observations from a re-analysis of the deposited data

How the results depend on the processing

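No paired analysis was possible because the arms held a single library for each target. Of 114 values under alternatives, 70 stayed within the interval (for counts, within 1.5 times) of the value given. The limit to chromosomes 1 to 19 and X could not move the values of raised regions, since all of them lay there. Neither the BRG1 median nor its difference from steady regions changed sign, while the order of the H3K4me1 shares in NanogBiD alone and NanogWT alone turned under 3 settings and raised no longer outnumbered lowered regions with scaled heights or FLAG scores. Under all 12 alternative ways of choosing regions, raised regions stood above steady ones in BRG1 change, in H3K27ac present in NanogBiD alone and in AP-1 matches. The chromosome limit is among these 12 and left the raised set unchanged.

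The number of raised regions was 730 with scores of at least 100, 427 with heights of at least 15, 549 when each list was cut to its 20000 peaks of highest score, 1488 with scaled heights and 666 with a FLAG ratio of at least 2. Heights of at least 15 gave a BRG1 median of 0.46, 0.20 above steady regions, H3K27ac in NanogBiD alone at 14.1%, H3K4me1 in NanogBiD alone at 6.32% and in NanogWT alone at 14.99%, the octamer at 1.87% and AP-1 at 25.3%. Scores of at least 100 gave H3K4me1 at 7.12% in NanogBiD alone and 16.7% in NanogWT alone, and AP-1 at 25.5%. The shortened lists gave BRG1 medians of 0.81 and 0.31 above steady, H3K27ac in NanogBiD alone at 28.6%, H3K4me1 at 15.5% and 12.8%, and AP-1 at 22.0%. Scaled heights gave a BRG1 median of 0.51, H3K27ac in NanogBiD alone at 24.7% and H3K4me1 in NanogBiD alone at 10.1%. A ratio of at least 2 gave BRG1 medians of 0.76 and 0.41 above steady, H3K27ac at 29.4% in NanogBiD alone and 1.35% in NanogWT alone, H3K4me1 in NanogBiD alone at 11.4% and AP-1 at 23.6%. FLAG scores in place of heights gave BRG1 medians of 0.54 and 0.16 above steady and H3K27ac in NanogBiD alone at 24.6%. Windows of 100 bp either side of each summit in place of peaks gave H3K27ac at 27.5% in NanogBiD alone, nearer to the 20.1% of steady regions there, and 4.43% in NanogWT alone, H3K4me1 in NanogBiD alone at 15.3% and AP-1 at 22.5%. A distal limit of 5 kb gave a BRG1 median of 0.64, and regions of 1 FLAG peak in each arm gave AP-1 at 22.4%. The octamer and AP-1 were at 1.07% and 10.3% within 25 bp of the summit and at 4.54% and 32.9% within 100 bp. AP-1 was at 15.3% around the NanogWT summit, a setting chosen after seeing the data. The causes of these differences were not tested, beyond the shorter lists and narrower or wider windows themselves.

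With 1 library a group, unknown depth and no control library, the intervals cover counting error only, and heights near 10 tags leave single ratios imprecise.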
